A study of Rattus norvegicus with 24 samples.

Results

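The NRF2 pathway and the glutathione transferases were followed through 10 genes in rat brain: the transcription factor Nfe2l2 and its inhibitor Keap1, the NRF2 targets Nqo1 and Hmox1, the glutathione synthesis subunits Gclc and Gclm, the thioredoxin reductase Txnrd1, and the transferases Gstm1, Gstp1 and Gsta4. The genes were taken by symbol from the platform annotation, which gives them 13 of the 31042 probe sets kept, and they are 10 of 14217 genes with a probe set of 1 symbol. Keap1, Gclc and Txnrd1 have a second, dim probe set each, and the brightest probe set represents a gene. Of the 10 genes, 9 passed the filter on low signal and were tested, and Hmox1 did not.

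The series placed an inherited and an exposure-based model of attention deficit hyperactivity disorder side by side. The genetic model is the spontaneously hypertensive rat (SHR, 8 rats), an inbred strain that was bred from the Wistar-Kyoto rat (WKY, 8 rats), its comparison strain. The environmental model is the Sprague-Dawley rat exposed to polychlorinated biphenyls (SD-PCB, 4 rats), an outbred stock set against unexposed Sprague-Dawley rats (SD, 8 rats). All rats were male and were sampled at postnatal day 55 to 65. The congeners, dose and timing of the exposure are not given in the sources used here. RNA of 6 regions was hybridised: cerebellar vermis, hippocampus, prefrontal cortex, dorsal and ventral striatum, and substantia nigra along with the ventral tegmental area (substantia nigra/VTA). Each of the 24 arrays is 1 region of 1 strain group, and whether it holds RNA of 1 rat or a pool is not stated. The 6 regions serve as repeated values, but the regions of 1 strain group were taken from 1 set of at most 8 rats and can share animals. The p-values therefore measure agreement between regions, not the spread between rats, and may be too small as statements on strains or exposure.

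NRF2, the product of Nfe2l2, is a transcription factor that KEAP1 holds in the cytoplasm and marks for degradation. When electrophiles or oxidants modify KEAP1, NRF2 accumulates, pairs with small MAF proteins and binds antioxidant response elements (AREs) in genes of glutathione synthesis, quinone reduction, heme breakdown and conjugation. Glutathione transferases couple glutathione to reactive compounds, and in brain they are known mainly from glia.

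Values are MAS5 signals, linear brightness values with no unit that were scaled alike on every array. Signals of 1 probe set can be compared between arrays, not with those of another probe set. Median signal of an array lay between 132 and 178 in SHR, 109 and 153 in WKY, 89.0 and 126 in SD-PCB, and 131 and 184 in SD, so array brightness moved with the strain groups. Centring each array on its median shifts the median log2 difference of the tested probe sets to -0.30 for SHR minus WKY, against 0.04 as deposited, and to 0.71 for SD-PCB minus SD, against -0.01. For SHR minus SD, WKY minus SD and the difference of the 2 models described further on, it shifts to 0.14, 0.47 and -0.98, against 0.05, 0.04 and 0.09. The same centring leaves 8.88% of the calls for SHR minus WKY higher, against 51.1% as deposited, and 95.4% of those for SD-PCB minus SD, against 46.5%. It leaves 69.6% for SHR minus SD (56.5% as deposited), 95.2% for WKY minus SD (50.8%) and 3.22% for the difference of the models (54.5%, and 43.2% with quantile normalization). Region labels were checked against defining transcripts. The cerebellar granule cell receptor subunit Gabra6 lay between 17285 and 24459 in the vermis, but it also reached 2297 on the WKY array of prefrontal cortex. The dopamine synthesis enzyme Th lay between 217 and 3742 in substantia nigra/VTA, lowest on the SD-PCB array, and at most at 249 elsewhere. Results are therefore also given without each region.

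Promoter windows from RefSeq (build GRCr8), 250 bases before to 50 after the annotated start, were found for 9 of the 10 genes, in 10 windows. The ARE core TGACNNNGC was searched on both strands. It was found in 4 windows, those of Nfe2l2, Gclm, Gstp1 and 1 of 2 of Txnrd1, and in 12.1% of all 33469 windows in the table. The Gstm1, Gstp1 and Gclm windows are shown because Gstm1 passed the test of SHR against WKY, Gstp1 that of SD-PCB against SD, and Gclm had the opposite sign to its partner Gclc in SHR against WKY. Capitals mark matches to the ARE core. Gstm1 stands at chr2:198343334-198343633 (minus strand), Gstp1 at chr1:210769656-210769955 (minus strand) and Gclm at chr2:213031885-213032184 (plus strand).
Gstm1: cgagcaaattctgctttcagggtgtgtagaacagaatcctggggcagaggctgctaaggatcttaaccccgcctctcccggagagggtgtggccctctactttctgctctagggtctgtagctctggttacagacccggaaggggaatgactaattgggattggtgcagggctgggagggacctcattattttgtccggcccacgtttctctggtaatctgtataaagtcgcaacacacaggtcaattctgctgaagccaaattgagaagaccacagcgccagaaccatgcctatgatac
Gstp1: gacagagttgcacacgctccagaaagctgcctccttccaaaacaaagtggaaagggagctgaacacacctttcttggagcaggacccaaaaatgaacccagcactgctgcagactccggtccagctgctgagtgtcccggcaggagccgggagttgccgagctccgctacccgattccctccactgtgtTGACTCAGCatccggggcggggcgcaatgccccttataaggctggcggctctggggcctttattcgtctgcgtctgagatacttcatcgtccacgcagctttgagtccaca
Gclm: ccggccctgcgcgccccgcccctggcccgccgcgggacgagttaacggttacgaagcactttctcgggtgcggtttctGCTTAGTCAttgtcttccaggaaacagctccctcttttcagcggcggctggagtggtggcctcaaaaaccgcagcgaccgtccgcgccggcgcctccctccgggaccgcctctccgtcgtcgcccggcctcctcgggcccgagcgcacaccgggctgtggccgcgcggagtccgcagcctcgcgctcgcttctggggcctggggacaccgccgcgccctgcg
In Gstp1 the core TGACTCAGC begins at -61 from the start and overlaps a match to the AP-1 motif TGANTCA, which 7.3% of all windows hold. In Gclm the core lies on the other strand, with GCTTAGTCA beginning at -172 as printed. The Gstm1 window holds no match to these letters. The match in Nfe2l2, TGACGCCGC, begins 39 bases after the start, and that in Txnrd1, GCTTTGTCA, at -78 on the other strand. A match is a description of the letters and was not set against any binding data. Sequence outside the windows was not searched, so a window without a match does not mean that the gene lacks an ARE.

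**Figure D1:**
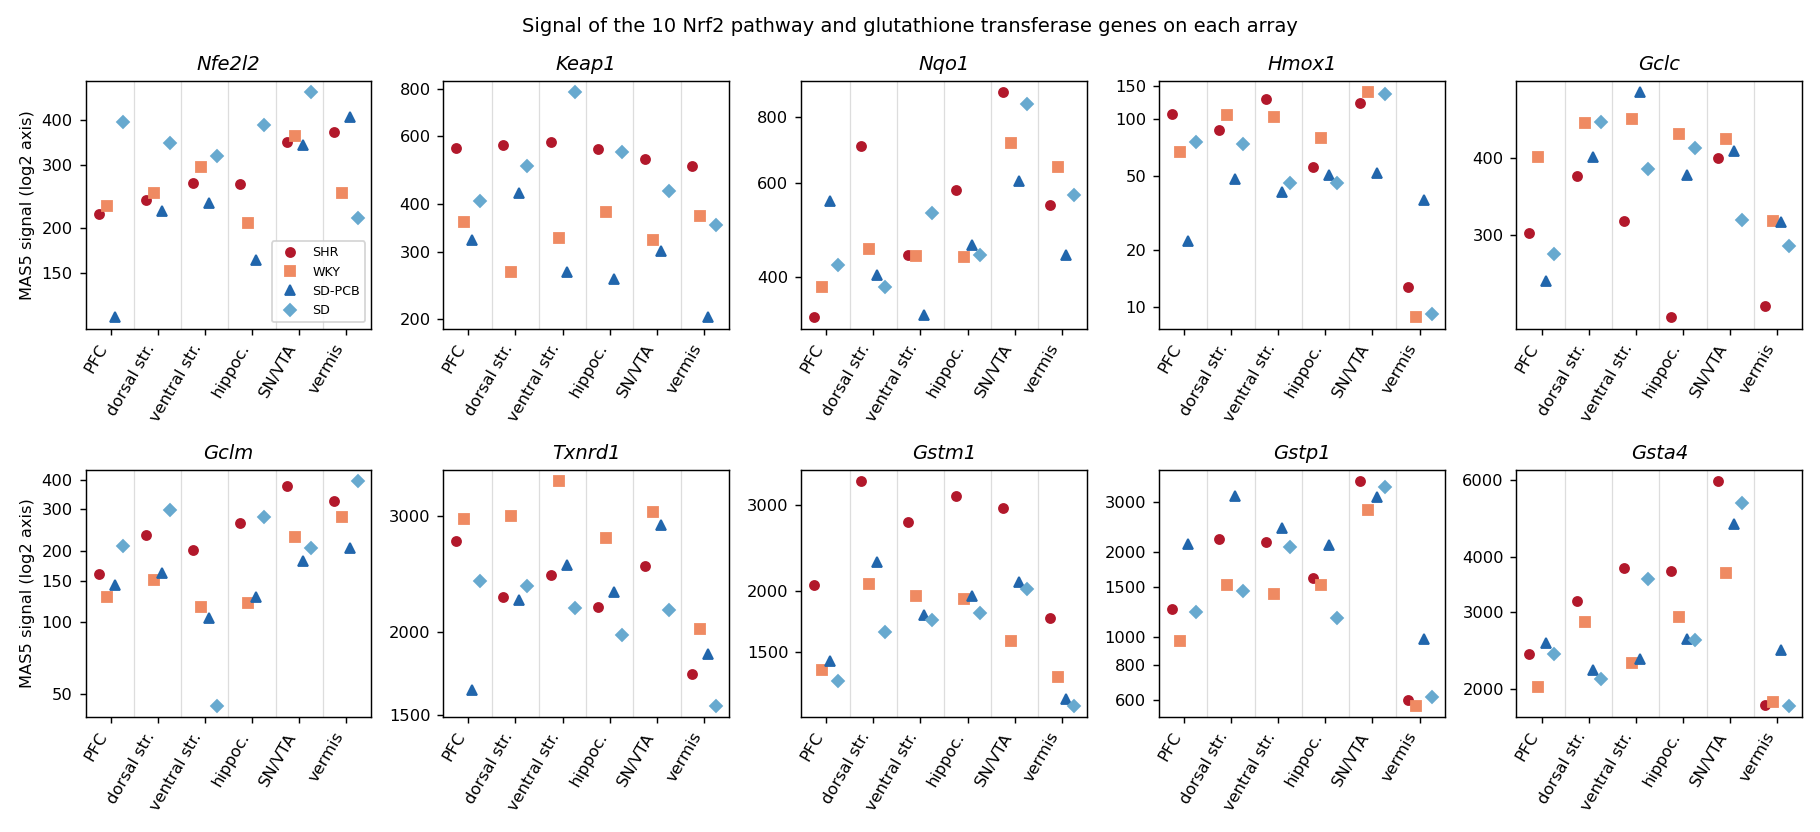
MAS5 signal (log2 axis) of the 10 genes on each of the 24 arrays, by region, with SHR as circles, WKY as squares, SD-PCB as triangles and SD as diamonds (1 array each). Gstm1 was highest in SHR in 6 of 6 regions, Gstp1 was lowest in the vermis in each strain group, and the vertical range differs between panels.

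SHR was set against WKY to ask how the genetic model differs from its comparison strain. Gstm1, a mu class transferase, was 1.55-fold higher in SHR, and Keap1 was 1.63-fold higher. Gsta4, an alpha class transferase that clears the lipid peroxidation product 4-hydroxynonenal, rose less. Gclc, the catalytic subunit of glutamate-cysteine ligase, and Txnrd1, the cytosolic thioredoxin reductase, were lower in SHR. That makes 5 of the 9 tested genes past an adjusted p of 0.05, 3 higher and 2 lower, while 32% of all 15521 probe sets tested passed, 16.4% higher and 15.7% lower. The median log2 difference of the 9 genes was 0.33, and that of all probe sets tested was 0.04.

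Nfe2l2 itself gave signals with a lowest, median and highest value of 218, 266 and 372 in SHR and 207, 250 and 361 in WKY. The groups overlapped, and the log2 difference was 0.10 ± 0.22 (SE, limma, adjusted p = 0.774). Keap1 gave signals between 502 and 581 on the 6 SHR arrays and between 266 and 381 on the 6 WKY arrays, with no overlap. Its log2 difference was 0.71 ± 0.17 (adjusted p = 0.00404), with SHR higher in 6 of 6 regions.

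Of the NRF2 targets, Nqo1, a quinone reductase, gave signals with a lowest, median and highest value of 336, 565 and 889 in SHR and 383, 445 and 714 in WKY. The 2 groups overlapped widely, and SHR was higher in 4 of 6 regions (0.16 ± 0.16, adjusted p = 0.478). Hmox1, the heme-degrading oxygenase, stayed under the filter with signals between 12.7 and 128 in SHR and 8.81 and 139 in WKY. No test was made of it.

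Gclc signals in SHR were 229 in the vermis, 374 in dorsal striatum, 220 in hippocampus, 302 in prefrontal cortex, 400 in substantia nigra/VTA and 316 in ventral striatum. In WKY they were 316, 457, 437, 402, 430 and 464 in the same order of regions. SHR was lower in 6 of 6 regions, by the most in hippocampus, and Gclc fell by 0.47 ± 0.15 on the log2 scale (adjusted p = 0.0233). Gclm, the modifier subunit of the same ligase, pointed the other way, with a median of 248 in SHR and 139 in WKY. SHR was higher in 6 of 6 regions (0.63 ± 0.28), but the difference missed the threshold (adjusted p = 0.0836). Gclm passed with array weights (0.64, adjusted p = 0.0238) and in the fit of SHR and WKY alone (0.0205). Without the ventral striatum arrays Gclc no longer passed (adjusted p = 0.0732), nor without the hippocampus arrays (0.108).

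Txnrd1 signals ranged from 1731 to 2743 in SHR, with a median of 2350, and from 2023 to 3382 in WKY, with a median of 2980. Txnrd1 fell by 0.31 ± 0.11 in SHR (adjusted p = 0.0305), with SHR lower in 6 of 6 regions. Its second probe set, with a highest signal of 168 on any array, pointed the opposite way at 1.27 ± 0.39 (adjusted p = 0.0226 when all probe sets are tested), so the probe sets of Txnrd1 disagree. The call also ended without the dorsal striatum (adjusted p = 0.0981), ventral striatum (0.121), hippocampus (0.0879) or substantia nigra/VTA arrays (0.0529).

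Among the transferases, Gstm1 gave signals in SHR of 1760 in the vermis, 3355 in dorsal striatum, 3122 in hippocampus, 2052 in prefrontal cortex, 2949 in substantia nigra/VTA and 2768 in ventral striatum. In WKY the same regions gave 1329, 2066, 1928, 1373, 1575 and 1953. Within each region the SHR array was the brighter, and the log2 difference was 0.63 ± 0.092 (adjusted p = 4.24e-05), from 0.40 in the region with the smallest difference to 0.90 in the region with the largest. The mu class holds paralogs of closely similar sequence, and how far their transcripts reach the Gstm1 probes is unknown. Gsta4 ranged from 1839 to 5955 in SHR and from 1875 to 3686 in WKY. SHR was higher in 5 of 6 regions, all but the vermis (0.36 ± 0.13, adjusted p = 0.0421). This call ended without the prefrontal cortex (adjusted p = 0.0663), ventral striatum (0.146), hippocampus (0.0903) or substantia nigra/VTA arrays (0.153). Gstp1, the pi class transferase, was higher in SHR in 6 of 6 regions (0.33 ± 0.13) and missed the threshold (adjusted p = 0.0605), but passed without the vermis arrays (0.39, adjusted p = 0.0460) and was at -0.0026 with median centring.

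A single sign in all 6 regions was seen for 6 of the 9 genes, Keap1, Gclc, Gclm, Txnrd1, Gstm1 and Gstp1, while 31.3% of all probe sets tested had it. With the median of each array as a covariate, 1 of the 9 genes passed, Gstm1 (0.75), while 5.5% of all probe sets did. With median centring Gstm1 stood at 0.29 (adjusted p = 0.0546), Keap1 at 0.37 (0.104) and Gsta4 at 0.02 (0.928). The 2 lower genes grew under that centring and were the 2 it called, Gclc at -0.81 (adjusted p = 4.71e-04) and Txnrd1 at -0.64 (1.67e-04). It called 6417 of all 15521 probe sets tested, only 8.88% of them higher.

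**Figure D2:**
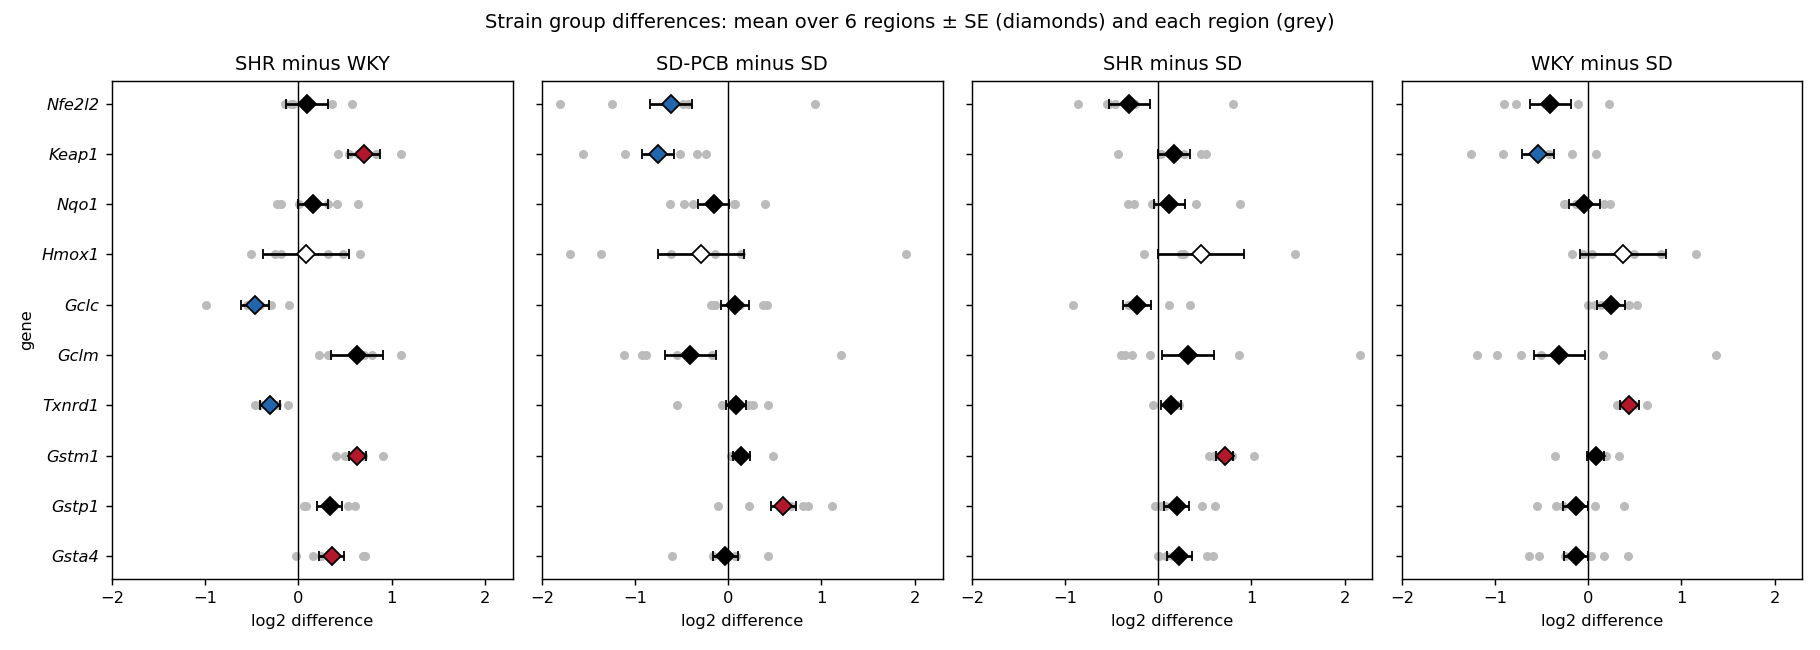
Log2 differences between strain groups for the 10 genes in 4 comparisons: diamonds are means over 6 regions with the SE of the limma fit, grey points the single regions. Red diamonds passed an adjusted p of 0.05 as higher and blue as lower, black ones did not pass, and white ones (Hmox1) were not tested. Gstm1 is red for SHR minus WKY (0.63) and SHR minus SD (0.71), and Keap1 is red for SHR minus WKY (0.71) and blue for SD-PCB minus SD (-0.76).

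SD-PCB was set against SD to ask how the exposed rats differ from unexposed rats of the same stock. Gstp1 was 1.51-fold higher in SD-PCB, while Keap1 was 1.69-fold lower. Nfe2l2 was lower in 5 of 6 regions and close to the threshold. These 3 of 9 tested genes passed, 1 higher and 2 lower, against 31.5% of all probe sets tested, 14.7% higher and 16.9% lower. The median log2 difference of the 9 genes was -0.03, and that of all probe sets tested was -0.01.

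For Keap1, signals in SD-PCB were 202 in the vermis, 427 in dorsal striatum, 254 in hippocampus, 321 in prefrontal cortex, 302 in substantia nigra/VTA and 266 in ventral striatum. In SD the same regions gave 353, 504, 547, 406, 433 and 783. SD-PCB was lower in 6 of 6 regions, and Keap1 fell by 0.76 ± 0.17 (adjusted p = 0.00198). Nfe2l2 signals were 408, 223, 162, 113, 341 and 235 in SD-PCB and 213, 345, 389, 397, 479 and 318 in SD, in that order of regions. The vermis alone was higher in SD-PCB, at a log2 difference of 0.93, and the mean over regions was -0.61 ± 0.22 (adjusted p = 0.0399). That call ended without the prefrontal cortex (adjusted p = 0.228), dorsal striatum (0.0935), ventral striatum (0.0797), hippocampus (0.169) or substantia nigra/VTA arrays (0.0770), and without the vermis arrays the difference was -0.92. With median centring the difference of Nfe2l2 changed sign to 0.11, and that of Keap1 was -0.04 (adjusted p = 0.865).

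Gstp1 gave signals in SD-PCB of 983 in the vermis, 3154 in dorsal striatum, 2110 in hippocampus, 2139 in prefrontal cortex, 3139 in substantia nigra/VTA and 2433 in ventral striatum. In SD they were 615, 1458, 1169, 1231, 3403 and 2091. SD-PCB was higher in every region except substantia nigra/VTA, where the log2 difference was -0.12, and the mean was 0.59 ± 0.13 (adjusted p = 0.00197). An exact two-sided sign-flip permutation over the 6 regions gave p = 0.0625 for Gstp1, 0.1875 for Nfe2l2 and 0.03125, the smallest it can give, for Keap1. With the array median as a covariate the difference of Gstp1 was -0.066, and limma called 0 of the 9 genes, and 0 had an unadjusted p under 0.05. That fit called 0 of all 15521 probe sets tested. Array medians of SD-PCB (89.0 to 126) and SD (131 to 184) did not overlap, so it can hardly tell the exposure from array brightness.

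Gstm1 and Gsta4 did not pass here. Gstm1 was higher in SD-PCB in 6 of 6 regions by a small amount (0.14 ± 0.092, adjusted p = 0.256), with signals from 1200 to 2289 in SD-PCB and 1162 to 2020 in SD. Gsta4 ranged from 2215 to 4743 in SD-PCB and from 1834 to 5320 in SD (-0.03 ± 0.13, adjusted p = 0.880). Nqo1, Gclc and Txnrd1 lay within 0.16 of 0 on the log2 scale, with adjusted p-values from 0.488 to 0.748. Gclm had a median of 152 in SD-PCB and 244 in SD (-0.41 ± 0.28, adjusted p = 0.273). In ventral striatum the order of Gclm turned, with 104 in SD-PCB and 44.3 in SD, and without those arrays it passed as lower (-0.73, adjusted p = 0.0201). The dim second probe set of Gclc was higher in SD-PCB in 6 of 6 regions (1.52 ± 0.55, adjusted p = 0.0339 when all probe sets are tested), which its brighter probe set did not show (0.07). Hmox1 lay between 22.5 and 51.9 in SD-PCB and between 9.20 and 135 in SD. With median centring 6 of the 9 genes passed, each higher in SD-PCB: Gstp1 (1.31), Gstm1 (0.87), Txnrd1 (0.81), Gclc (0.80), Gsta4 (0.69) and Nqo1 (0.57). That centring called 11526 of all 15521 probe sets tested, 95.4% of them higher, so the 6 rises are not particular to these genes. One sign in all 6 regions as deposited was seen for Keap1 and Gstm1, 2 of the 9 genes, against 23.5% of all probe sets.

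Unexposed SD rats also allow each inbred strain to be placed, in comparisons that share arrays with those above. Against SD, Gstm1 was 1.64-fold higher in SHR (log2 0.71 ± 0.092, adjusted p = 7.06e-06, 6 of 6 regions), and it was the only one of the 9 genes to pass, where 33.4% of all probe sets did (18.9% higher, 14.5% lower). In WKY against SD, Gstm1 gave 0.08 ± 0.092 (adjusted p = 0.579), but with median centring it passed as higher in WKY (0.51, adjusted p = 0.00148), beside 0.80 for SHR minus SD. A probe set higher in SHR than in WKY and also than in SD made up 8.85% of those tested. For SHR minus SD the other 8 genes had adjusted p-values of 0.192 or more. Without the vermis arrays Nfe2l2 also passed as lower in SHR (-0.53, adjusted p = 0.0343).

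WKY differed from SD in Txnrd1 and Keap1. Txnrd1 signals had a lowest, median and highest value of 2023, 2980 and 3382 in WKY and 1549, 2171 and 2394 in SD. WKY was higher in 6 of 6 regions (0.44 ± 0.11, adjusted p = 0.00519). The dim second probe set of Txnrd1 pointed the opposite way and did not pass (-0.68 ± 0.39, adjusted p = 0.246 when all probe sets are tested). Keap1 ranged from 266 to 381 in WKY and from 353 to 783 in SD, with WKY lower in 5 of 6 regions (-0.54 ± 0.17, adjusted p = 0.0341). The Keap1 call ended without the dorsal striatum (adjusted p = 0.101), ventral striatum (0.182), hippocampus (0.0867) or substantia nigra/VTA arrays (0.0610), and with median centring (-0.11, adjusted p = 0.608) or the array median as covariate (-0.41, 0.739). Without the vermis arrays Nfe2l2 passed as lower in WKY (-0.53, adjusted p = 0.0485). As deposited, Txnrd1 and Keap1 were the 2 called of the 9 genes, 1 higher and 1 lower, beside 17.5% of all probe sets, 8.92% higher and 8.63% lower.

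Across all 4 groups the order of the levels was steadiest for Gstm1 and for the brighter probe set of Txnrd1. Gstm1 was highest in SHR in 6 of 6 regions, as were 6.24% of all probe sets tested. Its mean was 2668 ± 628 in SHR (standard deviation over 6 regions), while WKY, SD-PCB and SD lay close together with 1704 ± 319, 1790 ± 408 and 1614 ± 321. Txnrd1 was highest in WKY in 6 of 6 regions, as were 0.979% of all probe sets, with means of 2313 ± 347 in SHR, 2864 ± 457 in WKY, 2244 ± 456 in SD-PCB and 2103 ± 309 in SD. The dim second probe set of Txnrd1 did not share this order: it was highest in SHR in 4 of 6 regions and lowest in WKY in 4 of 6. Gstp1 was highest in SD-PCB in 5 of 6 regions, a pattern of 5 or more shared by 9.11% of probe sets. Keap1 was highest in SHR in 5 of 6 regions (15% of probe sets reach that in SHR) and lowest in SD-PCB in 5 of 6. Keap1 therefore had the order SHR, SD, WKY, SD-PCB by mean (549 ± 29.9, 504 ± 153, 338 ± 42.7 and 295 ± 76.5), in which the neighbours SHR and SD did not pass the test (0.17 ± 0.17, adjusted p = 0.474). Array brightness had nearly this order, with mean array medians of 153, 163, 121 and 98.3. With median centring Keap1 was not called in SHR minus WKY (0.37), SD-PCB minus SD (-0.04) or WKY minus SD (-0.11).

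The genetic and the environmental difference, which share no arrays, were then set against each other as (SHR minus WKY) minus (SD-PCB minus SD). Keap1 gave the largest value of the 9 genes, 1.47 ± 0.24 (adjusted p = 1.03e-04), since it was higher in SHR than in WKY and lower in SD-PCB than in SD. Gclm (1.04, adjusted p = 0.0371), Gstm1 (0.49, 0.00478), Gclc (-0.54, 0.0494) and Txnrd1 (-0.39, 0.0414) also passed. Those 5 of 9 genes, 3 higher and 2 lower, compare with 40.4% of all probe sets, 22% higher and 18.4% lower. The probe sets of Txnrd1 disagree here too. Its dim second one gave 1.90 ± 0.56, higher in 6 of 6 regions (adjusted p = 0.00809 when all probe sets are tested). Leaving out any single region ended the call of Gclc (adjusted p from 0.0501 to 0.171). Gclm lost it without every region but ventral striatum (0.0621 to 0.164) and Txnrd1 without every region but prefrontal cortex (0.0747 to 0.162), while Keap1 and Gstm1 kept theirs. Without the vermis arrays Nfe2l2 (0.92, adjusted p = 0.00765) and Gsta4 (0.56, 0.0193) also passed. Median centring turned Gstm1 to -0.57 and Gclm to -0.024 and left Keap1 at 0.41 (adjusted p = 0.159). It moved Gclc to -1.60, Txnrd1 to -1.45 and Gstp1 to -1.32, further below 0. That centring called 10791 of all 15521 probe sets tested, 3.22% of them higher, so these falls are not particular to the genes.

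Regions were compared to ask where in the brain the genes are most abundant, with 4 arrays a region, 1 from each strain group, and a call asking for a log2 difference of 1 or more from the mean of the other 5 regions besides an adjusted p below 0.05. Gstp1 was the most regional of the genes, 2.28-fold higher in substantia nigra/VTA (log2 1.19 ± 0.13, adjusted p = 1.66e-07) and 2.86-fold lower in the vermis (-1.52 ± 0.13, adjusted p = 9.76e-10). Its signals ran from 2819 to 3569 in substantia nigra/VTA and from 571 to 983 in the vermis. The vermis was the lowest region in each of the 4 strain groups, as for 8.44% of all probe sets, and substantia nigra/VTA the highest in 3 of 4. In SD-PCB the dorsal striatum, at 3154, stood just above substantia nigra/VTA, at 3139.

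Gsta4 was highest in substantia nigra/VTA in 4 of 4 strain groups, with signals from 3686 to 5955, and its difference of 0.95 ± 0.13 (adjusted p = 3.27e-06) fell short of a log2 of 1. Without the WKY arrays it reached 1.05. Nqo1 was likewise highest there in 4 of 4 groups, with signals from 607 to 889 (0.70, adjusted p = 0.00125), a place held by 4.46% of all probe sets. Nfe2l2 was above the mean of the other regions there in 4 of 4 groups and highest in 2 (0.55, adjusted p = 0.0490). It was short of a log2 of 1, and under the alternatives its adjusted p ran from 0.0339 to 0.165. Gstm1 was lowest in the vermis in 4 of 4 groups, with signals from 1162 to 1760 (-0.57, adjusted p = 1.02e-05). Txnrd1 (-0.47, adjusted p = 4.75e-04), Gsta4 (-0.60, 3.80e-04) and Gclc (-0.39, 0.0316) were also lower in the vermis, short of a log2 of 1. The dim second probe set of Txnrd1 pointed the opposite way there (1.05, adjusted p = 0.0308 when all probe sets are tested), with the vermis highest in 4 of 4 groups. Gclm was the only one of the 9 genes that was higher in the vermis at an adjusted p below 0.05 (0.78, adjusted p = 0.0166). It was not called, being short of a log2 of 1, and had signals from 207 to 395. With no minimum of size, 48.9% of all probe sets had an adjusted p below 0.05 in the vermis and 33.4% in substantia nigra/VTA. Gclm was called lower in ventral striatum (-1.03 ± 0.26, adjusted p = 0.0133), which rested on the SD array at 44.3: without the SD arrays the difference was -0.52 (adjusted p = 0.163). Hmox1, not tested, was lowest in the vermis of SHR (12.7), WKY (8.81) and SD (9.20), while in SD-PCB the vermis gave 37.2 and prefrontal cortex the lowest signal, 22.5.

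Those calls, 1 of 9 genes in substantia nigra/VTA, 1 in the vermis and 1 in ventral striatum, compare with 7.44%, 15.3% and 2.04% of all probe sets. In prefrontal cortex, dorsal striatum and hippocampus 0 of 9 genes were called by limma, where 4.72%, 5.16% and 2.83% of all probe sets were. At an unadjusted p under 0.05, with no minimum of size, 4, 2 and 1 of the 9 genes passed there. Gstm1 was lower in prefrontal cortex (-0.36, adjusted p = 0.00438) and higher in dorsal striatum (0.33, adjusted p = 0.00763) by smaller amounts. Beside these values, 4 of 9 oligodendrocyte markers tested were called higher in substantia nigra/VTA and 4 lower in the vermis. The summed signal of those markers ran from 50310 to 92459 in substantia nigra/VTA, and from 31041 to 73551 elsewhere. Of 9 astrocyte markers 1 was called lower in the vermis, and in substantia nigra/VTA limma called 0 (6 at an unadjusted p under 0.05, with no minimum of size), with a median difference of 0.13. In the vermis 6 of 8 microglial markers tested were also called lower (median -1.11), and 1 of 7 vessel markers was lower. The summed signal of all 10 microglial markers listed, tested or not, was 1177 to 1550 in the vermis and 1986 to 4102 elsewhere. The brightest probe sets weigh most in such sums. In substantia nigra/VTA 2 of 9 meningeal and 1 of 7 vessel markers were higher. The part of these cell types in the regional values of Gstp1 and Gsta4 was not tested, and in bulk tissue fewer cells of a type cannot be told apart from less RNA per cell.

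**Figure D3:**
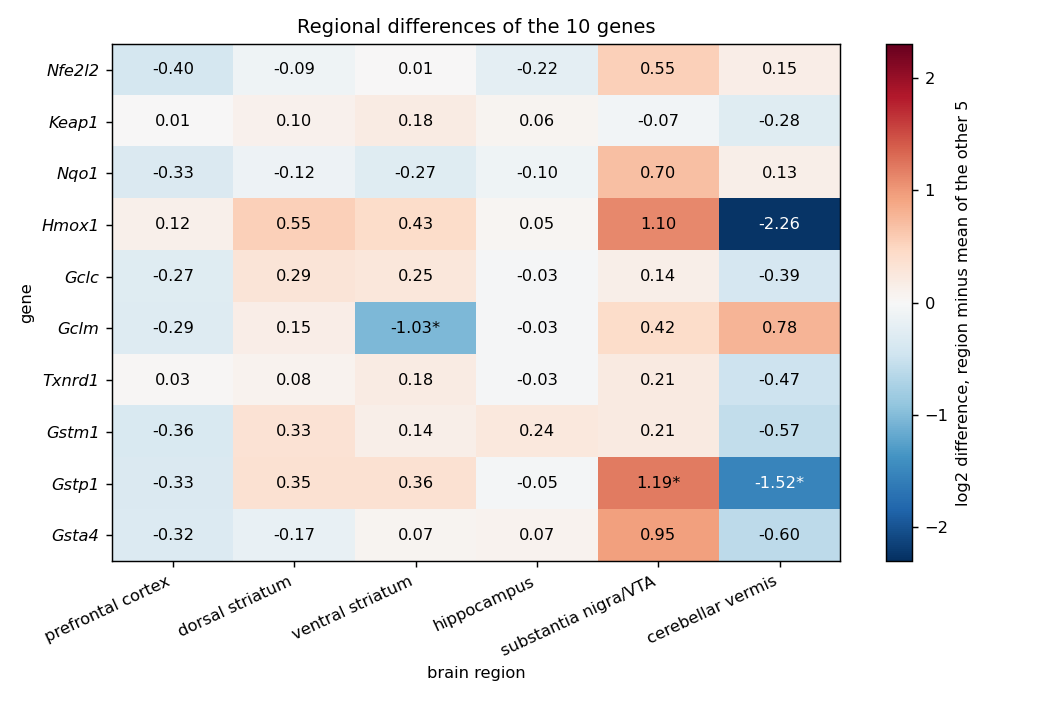
Log2 difference of each region from the mean of the other 5 for the 10 genes, as numbers and colours (red higher, blue lower), with an asterisk where the difference was called. Gstp1 is called in substantia nigra/VTA (1.19) and the vermis (-1.52), Gclm in ventral striatum (-1.03), and Hmox1 was not tested.

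Other genes of the pathway were counted from 4 lists. Their counts are read against the shares of all probe sets called, 32% in SHR against WKY, 31.5% in SD-PCB against SD, 33.4% in SHR against SD and 17.5% in WKY against SD. Of 9 tested NRF2 regulators and partners, 3 were higher and 1 lower in SHR than in WKY, led by Park7 (log2 0.71), which stabilises NRF2, and the small MAF protein Mafg (0.67). The related factor Nfe2l1 was lower (-0.53). In SD-PCB against SD, 1 was higher, the ubiquitin ligase subunit Btrc (0.42), and 3 were lower, led by Mafg (-0.80) and the autophagy adaptor Sqstm1 (-0.63), which competes with NRF2 for KEAP1. Against SD, 3 were higher and 2 lower in SHR (Btrc 0.63, Park7 0.57, Mafk -1.46, Rbx1 -0.25), and 1 was lower in WKY (Rbx1 -0.38).

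Of 22 other NRF2 targets tested, 6 passed in SHR against WKY, each of them higher, led by Ephx1 (0.95), an epoxide hydrolase, and Akr7a3 (0.83), an aldehyde reductase. In SD-PCB against SD 4 passed, each of them lower, led by the export pump Abcc1 (-1.79) and the biliverdin reductase Blvrb (-0.71). In SHR against SD, 4 were higher and 1 lower (Aox1 0.87, Abcc4 0.78, Abcc1 -1.10), and in WKY against SD 4 were lower, led by Abcc1 (-0.85) and Akr7a3 (-0.70). Their median was 0.19 in SHR minus WKY and -0.11 in SD-PCB minus SD, beside 0.04 and -0.01 for all probe sets. The 6 and 4 of 22 called in these 2 comparisons are smaller shares than the 32% and 31.5% of all probe sets, although 16.4% of those were higher and 16.9% lower.

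Of 12 other glutathione transferases tested, 4 passed in SHR against WKY, each of them higher. Gstm5, of the mu class like Gstm1, led with 0.83, followed by Gstt3 of the theta class with 0.74, and 4 of 12 is close to the 32% of all probe sets called. In SHR against SD 3 of 12 were higher, led by Gstt3 (1.03) and Gstm5 (0.81), a smaller share than the 33.4% of all probe sets. In SD-PCB against SD 1 was lower, Gstm7 (-0.57), and in WKY against SD Mgst1 was higher (0.54) and Gstz1 lower (-0.54). Of 15 genes of glutathione synthesis, recycling and the thioredoxin system, 3 were higher and 2 lower in SHR than in WKY. Glutathione synthetase Gss (0.70) and the amino acid transporter chain Slc3a2 (0.62) led the rises, and Txnip (-0.68), which inhibits thioredoxin, and Glrx (-0.42), a glutaredoxin, were the lower ones, and 5 of 15 is again close to the 32% of all probe sets. In SD-PCB against SD, Glrx was higher (0.50), and Slc3a2 (-0.38) and Glrx3 (-0.34) were lower. In SHR against SD 4 were higher and 3 lower (Txnrd3 1.49, Gss 0.75, Txnip -0.62, Glrx -0.53), and in WKY against SD limma called 0 (2 at an unadjusted p under 0.05). The SHR comparisons share the SHR arrays and the SD comparisons the SD arrays.

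Markers of other cell types were counted on the same arrays. Of all probe sets tested, 16.4% were higher and 15.7% lower in SHR against WKY, and 14.7% and 16.9% in SD-PCB against SD. The shares were 18.9% and 14.5% in SHR against SD, and 8.92% and 8.63% in WKY against SD. In SHR against WKY, 8 of 9 meningeal, 6 of 7 vessel and 4 of 8 microglial markers were higher, with 2 of 9 astrocyte markers higher and 1 lower. The summed meningeal signal ran from 4165 to 20214 in SHR and from 2367 to 7473 in WKY, and the summed vessel signal from 4214 to 9209 and from 2046 to 5566. The summed microglial signal ran from 1550 to 4102 in SHR and from 1280 to 2784 in WKY. Sums for meninges, vessels and microglia are each over all 10 markers listed, tested or not. The blood transcript Hbb, the only tested one of its list, was higher (1.71, adjusted p = 1.84e-09), and 2 of 9 oligodendrocyte markers and 1 of 9 neuron markers were higher. In SD-PCB against SD, 7 of 9 astrocyte markers were lower and 6 of 7 vessel markers higher. Of 9 oligodendrocyte markers 4 were lower and 1 higher, of 9 meningeal markers 3 were lower, and of 9 neuron markers 2 were lower and 1 higher, while Hbb was higher (1.06, adjusted p = 1.71e-06). The summed astrocyte signal ran from 61644 to 98599 in SD-PCB and from 83992 to 109404 in SD, and that of vessels from 5749 to 9541 and from 2729 to 8401. In SHR against SD, where Gstm1 was higher, 5 of 7 vessel markers were higher and 1 lower, 2 of 8 microglial and 1 of 9 meningeal markers were higher, and so was Hbb (0.79). There 6 of 9 astrocyte markers were lower and 2 higher, and 4 of 9 oligodendrocyte and 4 of 9 neuron markers were lower, with 1 of each higher. In WKY against SD, where Txnrd1 was higher and Keap1 lower, 7 of 9 astrocyte, 8 of 9 meningeal, 4 of 9 oligodendrocyte, 4 of 9 neuron and 3 of 7 vessel markers were lower, as was Hbb (-0.93), and 1 of 8 microglial markers was higher. Of 2 choroid plexus markers tested, 1 was lower in SD-PCB against SD and 1 in WKY against SD. No marker was listed at 0 on any array, and the part of these cells in the values of the 10 genes was not tested.

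Strain group took 67.3% of the sum of squares of Keap1 and 47.1% of that of Gstm1, and region took 80.9% of that of Gstp1 and 74.6% of that of Gsta4. Pearson r over the 24 arrays, which share region and strain group, was 0.76 between Gstp1 and Gsta4, 0.59 between Gstm1 and Gsta4 and 0.65 between Gclc and Txnrd1, but -0.36 between Gclc and Gclm and 0.19 between Nfe2l2 and Keap1. With the median log2 signal of the array, r was 0.64 for Keap1, 0.46 for Nfe2l2, -0.50 for Gstp1 and 0.02 for Gstm1. Keap1 and Nfe2l2 were thus brighter where arrays were brighter, Gstp1 dimmer, and Gstm1 neither.

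Among 9008 other genes, the 2 with the highest r were Psme1 (0.93) and Tmed10 (0.87) for Gsta4, Rin2 (0.93) and Fam114a1 (0.92) for Gstp1, and Abhd1 (0.87) and Cdk4 (0.85) for Gstm1. For Txnrd1 they were Nfe2l1 (0.91), a relative of Nfe2l2, and Ldb2 (0.81). Gclm had Dusp12 (0.87) and Pard6a (0.84), Gclc had Rhob (0.80) and Sptssa (0.79), and Nqo1 had Hsdl2 (0.85) and Psmg1 (0.83). Keap1 had Ebi3 (0.83) and Aldh16a1 (0.82), and Nfe2l2 had Ccdc127 (0.81) and Acadm (0.78). These values describe 24 arrays of 6 regions and carry no test.

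**Figure D4:**
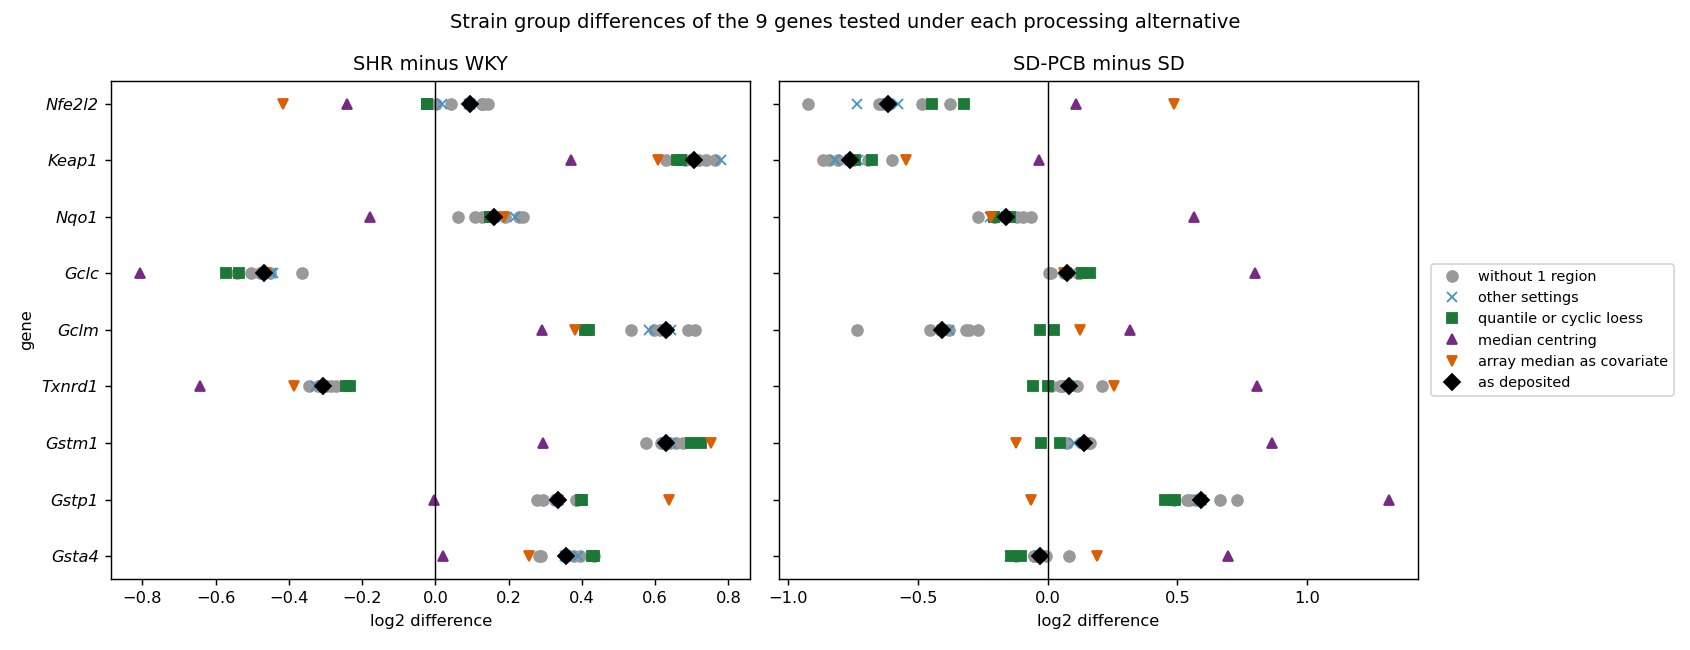
Log2 difference of the 9 tested genes for SHR minus WKY (left) and SD-PCB minus SD (right) as deposited (black diamonds) and under the processing alternatives named in the legend. Gstm1 stays above 0 on the left, from 0.29 to 0.75, and Nfe2l2 lies on both sides of 0 on the right, from -0.92 to 0.49.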

How the data were processed

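Per the submitters' processing notes, the authors deposited MAS5 signal intensities, 1 value per probe set for 24 Rat RAE 230 2.0 arrays; the MAS5 version is not given in the sources used here. The mean of each array without the outer 2% at each end was 500.1 to 500.2, and detection calls are not analysed here. From 31099 probe sets, 57 controls were set aside. Signals were taken as log2(signal + 1), and the 15521 probe sets at or above the median mean (a signal of about 116) were tested, 9009 genes. In R 4.3.3, limma 3.58.1 fitted region plus strain group with a trended, two-sided test (residual degrees of freedom 15), and Benjamini-Hochberg adjustment ran over all tested probe sets. Second probe sets and Hmox1 come from the fit of all 31042 probe sets. The platform table gives 20826 probe sets 1 symbol, 436 several and 9780 none. The number of arrays limits the precision.

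The members and lists were chosen with earlier results of these data known. Named were all 10 members, up to 2 rises and 2 falls past the threshold per list and comparison, and the 2 genes with the highest r per tested member. Alternatives were 3 scalings (quantile, cyclic loess, median centring), adding 16 before logs, testing every probe set or the upper 25%, leaving out the trend, array weights, the array median as covariate, each region or strain group left out, 2 strain groups alone, a log2 minimum of 0.5 for regions and an exact sign-flip permutation. The fits were tested on simulated data with independent noise on each array. For SHR minus WKY this recovered 38% of changes of 1.5-fold, 74% of 2-fold and 98% of 3-fold, with 3 false calls. The simulation held no shared animals and no array brightness tied to strain group, so it cannot tell how these affect the p-values.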

Additional observations from a re-analysis of the deposited data

Results flagged for a closer look

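Of 100 sets of 4 or 6 arrays examined for the 10 genes, 12 held an array whose gap to the others was large for the range of the set. The rule flags about 1 in 20 sets of independent values from 1 source. The sets here hold different regions or strain groups and share arrays, so that rate does not apply to them. In the vermis, the SD-PCB array stood above the others for Gstp1 (983, others 571 to 615) and Gsta4 (2460, others 1834 to 1875). The same Gstp1 value of 983 stood below the other SD-PCB regions (2110 to 3154). In substantia nigra/VTA the SD array stood out for Nfe2l2 (479, others 341 to 361) and the SD-PCB array for Hmox1 (51.9, others 122 to 139). In hippocampus the SHR array stood out for Gstm1 (3122, others 1805 to 1947) and Nqo1 (583, others 437 to 458). Among the regions of a strain group, the vermis was low for Hmox1 in SHR (12.7, others 55.5 to 128) and in WKY (8.81, others 66.6 to 139), and for Gclc in WKY (316, others 402 to 464). Gclm was low in the ventral striatum of SD (44.3, others 205 to 395), and Gsta4 was high in the substantia nigra/VTA of SD-PCB (4743, others 2215 to 2611).

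The difference between the genetic and the environmental comparison passed the limma test, at an adjusted p under 0.05, for 5 genes: Keap1 (1.47), Gclm (1.04), Gstm1 (0.49), Gclc (-0.54) and Txnrd1 (-0.39). For Txnrd1 the dim second probe set pointed the opposite way (1.90).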

How the results depend on the processing

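Of 9 genes tested, 5 were called in SHR against WKY, 3 in SD-PCB against SD, 1 in SHR against SD, 2 in WKY against SD and 5 in the difference of the models. Leaving out 1 region gave 2 to 6, 2 to 3, 1 to 2, 1 to 3 and 2 to 4 in that order. Median centring gave 2 in SHR against WKY and 6 in SD-PCB against SD. The upper 25% by signal, which tests fewer of the genes, gave 3 in SHR against WKY, 1 in SD-PCB against SD, 1 in WKY against SD and 2 in the difference of the models. With the array median as covariate limma called 1, 0, 0 and 0 in these 4 (2, 0, 1 and 0 at an unadjusted p under 0.05), and WKY and SD alone gave 1. Over regions, 3 calls became 9 with a log2 minimum of 0.5, and 2 to 4 without 1 strain group. Median centring reversed SD-PCB against SD for Nfe2l2 (0.11), Nqo1 (0.57) and Gsta4 (0.69), and the difference of the models for Nqo1 (-0.74), Gclm (-0.024), Gstm1 (-0.57) and Gsta4 (-0.67). The array median as covariate reversed SD-PCB against SD for Nfe2l2 (0.49) and Gstp1 (-0.066); the cause was not tested. Gstm1 kept its call in SHR against SD in 16 of 16 alternatives (0.65 to 0.80), and in SHR against WKY in 15 of 16. Among single genes, 20 of 140 values in SHR against WKY and 13 of 140 in SD-PCB against SD lost a call, the reversals of called genes included. Gstp1 in SHR against WKY, not called, was at -0.0026 with median centring. Calls over all probe sets were 4972, 4894, 5187, 2723 and 6277 in that order, with 853, 0, 74 and 2 under the covariate (SHR against SD stayed within 1.5 times). Median centring gave 11526 in SD-PCB against SD, 8745 in WKY against SD and 10791 in the difference of the models, and no filter gave 11079, 4889 and 13230 there. The upper 25% gave 3105, 2780, 3216, 1782 and 3567, and array weights gave 7681 in SHR against WKY and 4205 for WKY against SD. Without ventral striatum SHR against WKY had 3216 and WKY against SD 1657, and WKY against SD had 1797 without dorsal striatum and 1786 without hippocampus. Arrays of 1 region were compared as pairs throughout, since region was a term of each fit, and the labels carry no replicate numbers.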
